A study of Homo sapiens with 6 samples.

Results

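Transcript levels of the platelet-derived growth factor (PDGF) ligands and receptors and of the vascular endothelial growth factor (VEGF) ligands were followed in KGN cells with and without overexpression of SOX3. The genes were chosen by symbol: PDGFRA, PDGFRB, PDGFA, PDGFB, PDGFC, PDGFD, VEGFA, VEGFB and VEGFC, 9 of the 16626 genes listed in the deposited expression table. KGN is an established human granulosa-like tumour cell line, and SOX3 is an HMG-box transcription factor of the SOX family. RNA from TRIzol extraction was checked on a Bioanalyzer and sequenced on an Illumina HiSeq instrument. The control group, OE-NC, carries the genotype label WT, and the second group, OE-SOX3, is labelled as overexpressing SOX3, with 3 libraries in each. The vector, the promoter that drives SOX3 and whether cells were a pool or a clone are not stated in the sources used here. The labels do not tell whether each library is a culture of its own, and every p-value therefore reflects library-to-library spread that may be technical only.

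PDGFs are secreted dimers that bind 2 receptor tyrosine kinases: the alpha receptor PDGFRA binds PDGF-A, PDGF-B and PDGF-C chains, and the beta receptor PDGFRB binds PDGF-B and PDGF-D chains. VEGF-A, VEGF-B and VEGF-C act through a related set of receptor tyrosine kinases on endothelial cells, with VEGF-C best known for lymphatic growth. In the ovary, granulosa cells are a source of VEGF-A for the follicle's surrounding vessels, and theca and stromal cells carry PDGF receptors.

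Levels are given in FPKM (fragments scaled to transcript length and to the mapped reads of the library), a scale that allows levels to be set side by side between genes. The values were whole multiples of a step for each gene, from which reads were recovered, and library totals lay between 18039929 and 20335307 reads. SOX3 itself stood at 0.0756, 0.142 and 0.0254 FPKM in OE-NC, from 3, 6 and 1 reads, and at 14.3, 13.7 and 14.4 FPKM in OE-SOX3. The library OE-NC 1 stood apart from the other two controls: its Pearson correlation with each across 11131 genes was 0.986, against 0.998 between those 2. Its difference from them followed transcript length, with a Spearman correlation of -0.508 across genes, which are not independent replicates. The difference between the groups also followed length, at 0.239. Values of the genes chosen by symbol that moved most without this library are given below with and without it. RNA quality scores per library were not used here.

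Each gene was compared between OE-SOX3 and OE-NC on the log2(FPKM + 1) scale with limma, over the 11131 genes whose mean reached 1 FPKM in either group, and p-values were adjusted by the Benjamini-Hochberg method over all of them at a threshold of 0.05. Of the 9 genes, 8 passed the filter on low values and PDGFD did not. A gene under 1 FPKM in 1 group entered the test through the other group alone, as PDGFB did through OE-SOX3. Of these 8, 4 rose (PDGFRA, PDGFRB, PDGFA and PDGFB), 2 fell (VEGFA and VEGFC) and 2 did not pass the test (PDGFC and VEGFB). Across all genes tested, 69.1% passed, 32.9% higher and 36.1% lower in OE-SOX3, so a count of 6 of 8 is near the background and is not a result about these genes. Groups did not overlap for 6 of the 8 genes, against 76.0% of all genes tested. The median log2 fold change was 0.22 over the 8 genes and -0.03 over all genes. When every library was scaled to the same sum, the median over all genes became 0.12 and the split of called genes moved from 3665 higher and 4021 lower to 4876 higher and 3362 lower. What follows concerns the size and direction of each gene's difference.

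Promoter stretches of the 2 genes for the receptors and of VEGFC are shown because the receptor genes rose while VEGFC, whose direction depended on scaling (0.06 on the log2 scale after quantile normalization), fell. RefSeq starts on GRCh38.p14 were given for 6 of the 9 genes, in 10 stretches of 250 bases before the start. Capitals mark exact matches, on either strand, to ACAAT (a core of SOX binding motifs), GGGCGG (the GC box), TATAAA (the TATA box), CCAAT (the CCAAT box) and ACGTG (the core of hypoxia response elements), none of which overlap each other in these 3 stretches.
PDGFRA, the second listed start, chr4:54233710-54233959, plus strand: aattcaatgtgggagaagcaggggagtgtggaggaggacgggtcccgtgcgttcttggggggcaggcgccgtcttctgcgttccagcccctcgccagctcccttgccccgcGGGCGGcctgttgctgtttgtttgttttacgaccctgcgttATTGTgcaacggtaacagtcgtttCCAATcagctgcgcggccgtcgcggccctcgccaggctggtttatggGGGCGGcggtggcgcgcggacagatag
PDGFRB, chr5:150155846-150156095, minus strand: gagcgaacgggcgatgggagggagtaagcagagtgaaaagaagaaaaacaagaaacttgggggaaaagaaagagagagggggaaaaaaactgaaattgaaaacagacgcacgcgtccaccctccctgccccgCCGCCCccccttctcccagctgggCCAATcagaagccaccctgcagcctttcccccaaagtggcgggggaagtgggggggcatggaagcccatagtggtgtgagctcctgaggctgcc
VEGFC, chr4:176792923-176793172, minus strand: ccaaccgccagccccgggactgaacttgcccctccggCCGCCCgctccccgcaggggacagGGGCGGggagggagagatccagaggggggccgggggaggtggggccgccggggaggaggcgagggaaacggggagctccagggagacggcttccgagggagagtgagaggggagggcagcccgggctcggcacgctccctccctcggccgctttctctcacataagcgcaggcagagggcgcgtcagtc
The PDGFRA stretch held 1 ACAAT (read as ATTGT), 2 GC boxes and 1 CCAAT box, the PDGFRB stretch 1 GC box (read as CCGCCC) and 1 CCAAT box, and the VEGFC stretch 2 GC boxes. ACAAT was found in 1 of the 10 stretches, the PDGFRA stretch shown, and GGGCGG in 9. The first listed PDGFRA start (chr4:54229043-54229292, 46.8% G or C) held none of the 5 motifs and is not printed. It runs past the GENCODE gene start at 54229097, and the printed PDGFRA stretch lies wholly inside that gene. The printed PDGFRB stretch also runs past its gene start, at 150155872. Of all 35116 promoters of this length in RefSeq, 24.6% held ACAAT, 42.6% GGGCGG, 10.7% TATAAA, 32.0% CCAAT and 18.5% ACGTG. The bases were 64.0% G or C for PDGFRA, 58.4% for PDGFRB and 74.0% for VEGFC, against a median of 58.0% over all promoters. These matches describe the letters only.

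Both receptor genes rose. PDGFRA (chromosome 4, 54229097 to 54298247, plus strand, GENCODE 29 on GRCh38) stood at 5.73, 6.79 and 6.77 FPKM in OE-NC and at 18.2, 18.8 and 18.9 FPKM in OE-SOX3. Every OE-SOX3 library lay above every control. The mean rose from 6.43 ± 0.610 to 18.6 ± 0.370 FPKM (means ± SD over 3 libraries each), a log2 fold change of 1.40 (SE 0.08, limma adjusted p = 7.55e-06). Of all genes tested, 98.1% had a lower log2 fold change. In recovered reads, 3024 in OE-NC stood against 8494 in OE-SOX3, a ratio of 2.89 per library total with an interval of 2.77 to 3.02, where this and later 95% intervals cover counting error only. Of its exon bases, 15.8% also lie in AC058822.1 on the same strand, and reads of such bases cannot be assigned from these values. In bulk RNA, fewer cells of a type and less RNA per cell cannot be told apart, here and for every gene below.

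PDGFRB (chromosome 5, 150113837 to 150155872, minus strand) stood at 11.6, 19.1 and 19.2 FPKM in OE-NC and at 29.1, 33.7 and 34.2 FPKM in OE-SOX3. The groups did not overlap, and in each the library numbered 1 was the lowest. The mean rose from 16.6 ± 4.36 to 32.3 ± 2.84 FPKM (each ± SD, n = 3), a log2 fold change of 0.95 (SE 0.19, limma adjusted p = 0.00310). Without OE-NC 1, the control mean was 19.1 FPKM and the log2 fold change 0.72 (limma adjusted p = 3.18e-06). For PDGFRA the log2 fold change without that library was 1.33. Transcripts of PDGFRA and PDGFRB are long: 85.8% and 71.1% of tested genes were shorter. OE-NC 1 stood at 0.844 of the mean of the other controls for PDGFRA and at 0.606 for PDGFRB. With the trend against length removed, both receptor genes still passed the test.

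Among the PDGF ligand genes, PDGFB showed the widest relative difference of those tested. PDGFB (chromosome 22, 39223359 to 39244751, minus strand), whose product binds both receptors, stood at 0.403, 0.572 and 0.771 FPKM in OE-NC, from 29, 44 and 55 reads. It stood at 3.92, 4.29 and 4.89 FPKM in OE-SOX3, from 287, 311 and 334 reads. The lowest OE-SOX3 library lay well above the highest control. The mean rose from 0.582 ± 0.184 to 4.37 ± 0.492 FPKM (means ± SD over 3 libraries each), a log2 fold change of 1.77 (SE 0.11, limma adjusted p = 1.11e-05), and 92 of the genes tested had a higher one. The pseudocount understates the change of a gene this low: the log2 fold change was 2.74 with a pseudocount of 0.1, and the ratio of reads per library total was 7.50 (6.23 to 9.09).

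PDGFA (chromosome 7, 497258 to 520296, minus strand), whose chain binds the alpha receptor, stood at 14.1, 9.40 and 10.1 FPKM in OE-NC and at 16.8, 16.5 and 14.3 FPKM in OE-SOX3. The highest control, OE-NC 1, lay just below the lowest OE-SOX3 library. The mean rose from 11.2 ± 2.55 to 15.9 ± 1.36 FPKM (each ± SD, n = 3), a log2 fold change of 0.49 (SE 0.15, limma adjusted p = 0.0207). The call did not hold in 4 of the 6 fits that left out a library: the limma adjusted p was 0.0603 without OE-NC 2, 0.0600 without OE-NC 3, 0.0714 without OE-SOX3 1 and 0.0695 without OE-SOX3 2. Without OE-NC 1 the log2 fold change was 0.65 (limma adjusted p = 1.00e-05).

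PDGFC (chromosome 4, 156760454 to 156971394, minus strand), a ligand chain activated by proteolysis, was the PDGF ligand transcript at the highest level in both groups. It stood at 39.8, 33.0 and 32.4 FPKM in OE-NC and at 34.0, 31.0 and 29.8 FPKM in OE-SOX3. The groups overlapped. The means were 35.1 ± 4.12 and 31.6 ± 2.13 FPKM (means ± SD over 3 libraries each), and the log2 fold change of -0.14 (SE 0.10) did not pass the test (limma adjusted p = 0.223). It was -0.05 without OE-NC 1 (limma adjusted p = 0.416), -0.0007 when every library was scaled to the same sum and 0.068 after quantile normalization, so PDGFC has no settled direction.

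PDGFD (chromosome 11, 103907186 to 104164379, minus strand), which encodes a protease-activated ligand of the beta receptor, was close to the limit of detection. It had 0, 0 and 1 reads in OE-NC and 14, 13 and 19 in OE-SOX3, the latter 0.188, 0.177 and 0.274 FPKM. The groups did not overlap, but the smallest two-sided p that an exact permutation test of 3 against 3 libraries can give is 0.10, the value obtained. With no filter on low values, limma called PDGFD higher (log2 fold change 0.27, SE 0.03, adjusted p = 0.000582). The ratio of reads per library total was 47.4, with a counting interval from 8.09 to 1911.

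**Figure D1:**
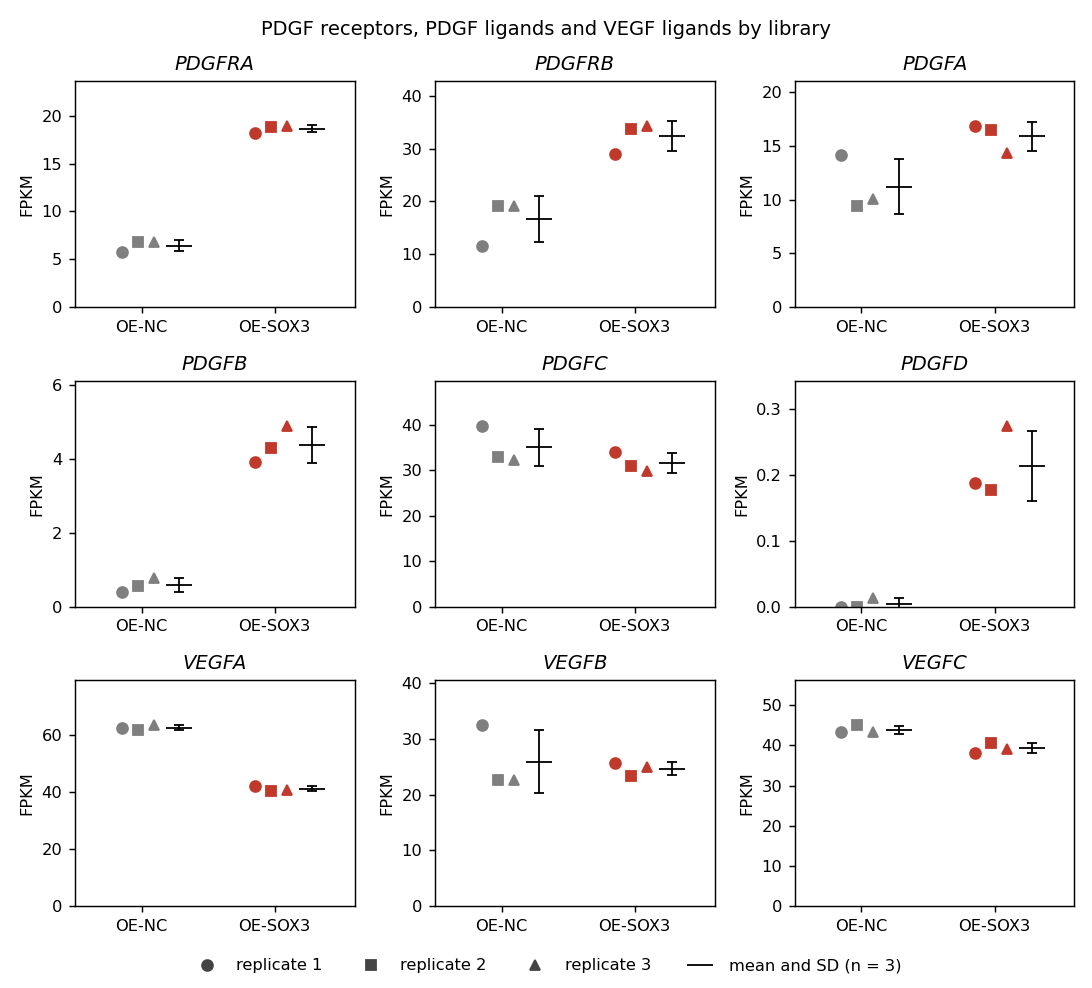
Level of each of the 9 genes in FPKM, on linear axes from 0 that differ between panels, in the 3 OE-NC libraries (grey) and 3 OE-SOX3 libraries (red), with mean and SD beside them. PDGFRA, PDGFRB and PDGFB lie apart and higher in OE-SOX3, VEGFA lies apart and lower (62.7 against 41.2 FPKM), and PDGFC and VEGFB overlap.

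VEGFA was the member of the VEGF family that fell most. VEGFA (chromosome 6, 43770184 to 43786487, plus strand), the main angiogenic ligand, stood at 62.7, 61.9 and 63.4 FPKM in OE-NC and at 42.3, 40.5 and 40.9 FPKM in OE-SOX3. Libraries within each group lay close together, OE-NC 1 included, and the groups were far apart. The mean fell from 62.7 ± 0.760 to 41.2 ± 0.945 FPKM (each ± SD, n = 3), a log2 fold change of -0.59 (SE 0.05, limma adjusted p = 7.83e-05). Reads went from 13600 to 8694, a ratio of 0.658 per library total (0.641 to 0.676). Values are per gene and do not separate splice forms of VEGFA.

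VEGFC (chromosome 4, 176683538 to 176792727, minus strand), the lymphangiogenic ligand, stood at 43.2, 44.9 and 43.4 FPKM in OE-NC and at 38.1, 40.5 and 39.2 FPKM in OE-SOX3. The groups did not overlap, though they lay close. The mean fell from 43.8 ± 0.945 to 39.3 ± 1.23 FPKM (means ± SD over 3 libraries each), a log2 fold change of -0.16 (SE 0.06, limma adjusted p = 0.0438), and this direction depended on scaling: it was -0.01 when every library was scaled to the same sum and 0.06 after quantile normalization. The call held in 4 of 14 alternatives. It was lost in 5 of the 6 fits that left out a library, and the limma adjusted p without OE-NC 1 was 0.00440.

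VEGFB (chromosome 11, 64234538 to 64238793, plus strand), a ligand best known from heart and muscle, stood at 32.4, 22.6 and 22.7 FPKM in OE-NC and at 25.7, 23.4 and 25.0 FPKM in OE-SOX3. OE-NC 1 was the highest of all 6 libraries, and the other 2 controls were the lowest. The means of 25.9 ± 5.63 and 24.7 ± 1.19 FPKM (each ± SD, n = 3) gave a log2 fold change of -0.05 (SE 0.14, limma adjusted p = 0.774). Without OE-NC 1 the sign turned, with a log2 fold change of 0.12 that passed the test (limma adjusted p = 0.0455). Only 14.6% of tested genes were shorter than VEGFB, and OE-NC 1 stood at 1.43 times the mean of the other controls.

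**Figure D2:**
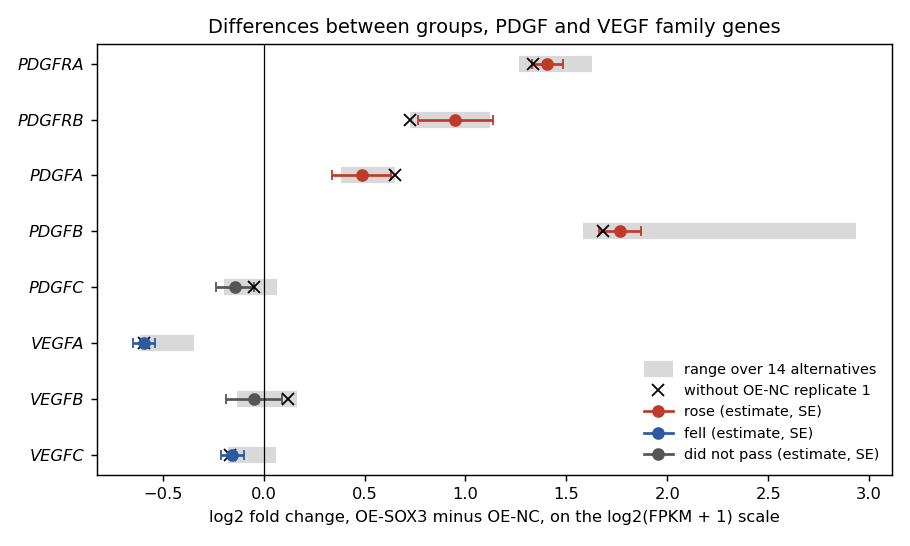
Log2 fold change on the log2(FPKM + 1) scale, OE-SOX3 minus OE-NC, of the 8 genes tested: points with standard errors for all 6 libraries, crosses without OE-NC 1, and grey bands for the range over the 14 alternatives. PDGFB and PDGFRA stand highest (points at 1.77 and 1.40), VEGFA lowest (-0.59), and the bands of PDGFC, VEGFB and VEGFC cross 0 (VEGFC at -0.16 turned to 0.06 after quantile normalization).

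**Figure D3:**
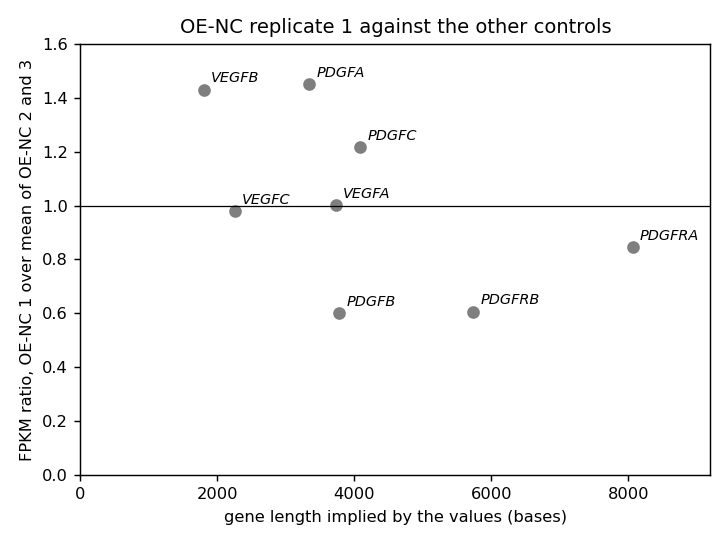
Ratio of FPKM in OE-NC 1 to the mean of OE-NC 2 and OE-NC 3, on a linear axis, against the gene length in bases implied by the values, for the 8 genes tested, with a line at equal levels. PDGFRB lies low (0.606) and the short VEGFB lies high (1.43), while PDGFB (0.600) and PDGFA (1.45) differ at similar lengths.

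Pairs of genes were also compared within each library, as the difference of log2(FPKM + 1), which for low genes is smaller than the log2 ratio of the levels themselves. For VEGFA minus VEGFC it was 0.53, 0.45 and 0.54 in OE-NC and 0.15, 0.0012 and 0.06 in OE-SOX3. VEGFA thus stood above VEGFC in all 6 libraries, by less in OE-SOX3. For PDGFRA minus PDGFRB the mean was -1.22 ± 0.27 in OE-NC and -0.76 ± 0.10 in OE-SOX3 (means ± SD over 3 libraries each). Without OE-NC 1 the control mean was -1.37. For PDGFA minus PDGFB the means were 2.93 ± 0.43 and 1.65 ± 0.25, and the control mean was 2.69 without OE-NC 1. For each of the 5 pairs compared the groups did not overlap, and the exact permutation test gave p = 0.10 (two-sided, 0.10 after adjustment over the 5), the smallest it can give with 3 libraries per group. For PDGFRA minus PDGFRB it gave 0.30 after quantile normalization and 0.30 with the length trend removed. The pseudocount matters for the pairs with a low gene: the difference between groups was -1.28 for PDGFA minus PDGFB and -2.22 with a pseudocount of 0.1, and for PDGFC minus PDGFD it was -0.41, -1.72 with that pseudocount and -0.69 when every library was scaled to the same sum.

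The makeup of the PDGF ligand transcripts differed between groups. Their summed level was 46.9 ± 6.49 FPKM in OE-NC and 52.1 ± 2.80 FPKM in OE-SOX3 (each ± SD, n = 3). PDGFC made up 73.3%, 76.8% and 74.9% of it in the controls and 61.9%, 59.7% and 60.5% in OE-SOX3. PDGFB made up 0.741%, 1.33% and 1.78% in the controls and 7.14%, 8.26% and 9.92% in OE-SOX3. Neither share overlapped between groups. PDGFA made up 23.7% ± 2.08 in OE-NC and 30.5% ± 1.34 in OE-SOX3. The summed receptor level was 23.1 ± 4.97 FPKM in OE-NC and 51.0 ± 3.21 FPKM in OE-SOX3, of which PDGFRA made up 28.5% ± 3.98 and 36.6% ± 1.64. The summed VEGF ligand level was 132 ± 5.07 and 105 ± 0.830 FPKM, and VEGFA made up 47.4% ± 1.86 and 39.2% ± 0.597 of it. Without OE-NC 1 the control sums were 43.1 FPKM for PDGF ligands, 25.9 FPKM for receptors and 129 FPKM for VEGF ligands, and the control shares were 75.8% for PDGFC, 1.56% for PDGFB, 26.2% for PDGFRA and 48.4% for VEGFA. These shares were not tested.

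**Figure D4:**
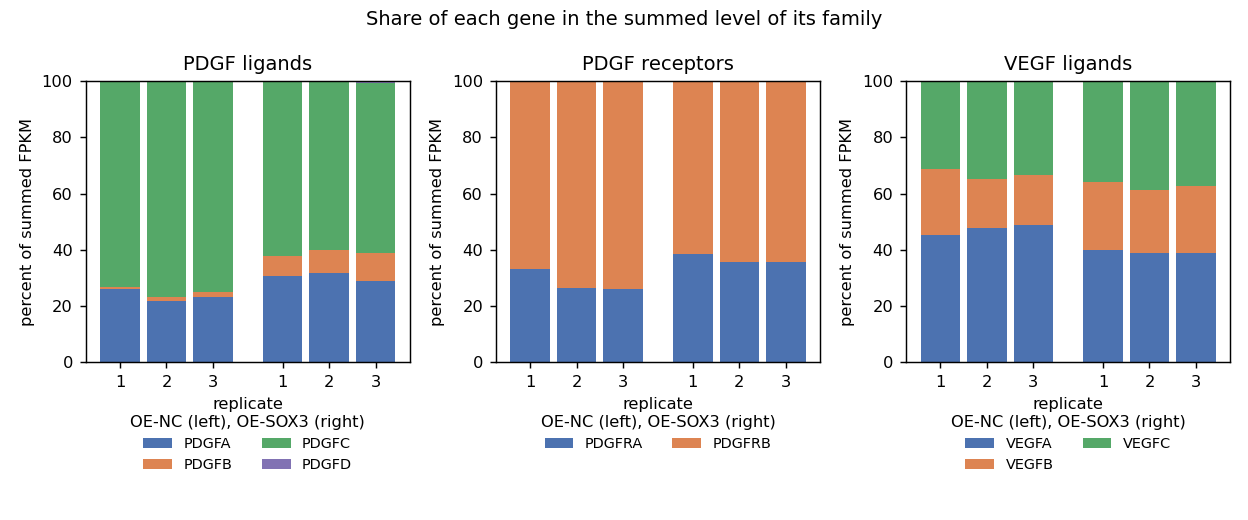
Share of each gene, in percent of the summed FPKM of its family, in each of the 6 libraries, for PDGF ligands, PDGF receptors and VEGF ligands. The PDGFC share is lower in each OE-SOX3 library (59.7% to 61.9%) than in each control (73.3% to 76.8%), with more PDGFB and PDGFA.

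By mean FPKM the order in OE-NC was VEGFA, VEGFC, PDGFC, VEGFB, PDGFRB, PDGFA, PDGFRA, PDGFB and PDGFD. Of these neighbours, the ranges over libraries overlapped for PDGFRB and PDGFA. In OE-SOX3 the order was VEGFA, VEGFC, PDGFRB, PDGFC, VEGFB, PDGFRA, PDGFA, PDGFB and PDGFD, where PDGFRB and PDGFC overlapped and the lowest VEGFA library (40.54 FPKM) was barely above the highest VEGFC library (40.51 FPKM). Both receptor genes thus stood above PDGFA in OE-SOX3.

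The receptors of the VEGF ligands were low or near 0. FLT1, a receptor of VEGF-A and VEGF-B, had 1 read in the 6 libraries together, and FLT4, a receptor of VEGF-C, was listed at 0 in all. KDR, the main signalling receptor of VEGF-A, stood at 1.89 ± 0.362 FPKM in OE-NC and 2.41 ± 0.0621 FPKM in OE-SOX3 (means ± SD over 3 libraries each), which did not pass the test (log2 fold change 0.25, limma adjusted p = 0.0517). KDR passed, higher in OE-SOX3, with the replicate block (limma adjusted p = 0.0305) and with the block and the length trend removed (0.0494). It also passed when every library was scaled to the same sum (limma adjusted p = 0.0378) and with voom (0.0492). The same held without OE-NC 1 (limma adjusted p = 0.0490, log2 fold change 0.15) or OE-NC 3 (0.0188). Of the coreceptors, NRP1 fell from 87.0 ± 3.18 to 63.0 ± 0.539 FPKM (log2 fold change -0.46) and NRP2 rose from 18.6 ± 2.59 to 42.4 ± 0.624 FPKM (1.15). PGF, a ligand of FLT1, rose from 0.590 ± 0.122 to 1.45 ± 0.118 FPKM and passed the filter through OE-SOX3 alone. VEGFD, under the filter, stood at 0.338 and 0.334 FPKM. Of the 4 genes of this list tested, 2 rose and 1 fell, with a median log2 fold change of 0.44, against -0.03 over all genes. The share that passed was 75.0%, against 69.1% over all genes. With no filter the median was 0.12 over 6 genes of the list, against 0.01 over all genes.

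Among proteases and cofactors that process PDGF-C, PDGF-D or VEGF-C, 3 of 7 rose and 2 fell. Thus 71.4% passed, near the 69.1% over all genes. PLAT, the protease known to activate PDGF-C, rose from 29.2 ± 2.43 to 64.0 ± 0.609 FPKM (each ± SD, n = 3). PLAU, known to activate PDGF-D, rose from 14.2 ± 0.463 to 23.7 ± 0.321 FPKM, with 31.1% of its exon bases shared with C10orf55 on the opposite strand. PCSK7, a proprotein convertase, fell from 16.2 to 10.3 FPKM and CCBE1, a cofactor of VEGF-C processing, from 46.8 to 39.3 FPKM. The CCBE1 call was lost in 5 of the 6 fits that left out a library, with limma adjusted p from 0.0505 to 0.0623, and under scaling to the same sum or quantile normalization (log2 fold change -0.10 and -0.02). Over these 7 genes the log2 fold change had a median of -0.10, with the other sign in 5 of 14 alternatives.

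Of 11 genes for extracellular binders of PDGF or VEGF, 7 rose and 2 fell, with a median log2 fold change of 0.66. Thus 81.8% passed, against 69.1% over all genes. Without OE-NC 1, 9 rose and 2 fell, with a median of 0.46. SPARC, a matrix protein that binds PDGF-B, rose from 623 to 1476 FPKM, and CCN2, a matricellular protein that binds VEGF-A, from 149 to 602 FPKM. The heparan sulfate proteoglycan SDC2 rose from 4.86 to 18.5 FPKM and the small proteoglycan DCN from 23.4 to 37.5 FPKM.

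Of 23 genes for signalling proteins close to the PDGF receptors, 14 rose, 2 fell and 7 did not pass, with a median of 0.40. The share that passed, 69.6%, was near the 69.1% over all genes, where 32.9% were higher and 36.1% lower. Without OE-NC 1, 14 rose and 4 fell, with a median of 0.31. PIK3R1, a regulatory subunit of PI 3-kinase, rose from 4.19 to 7.69 FPKM, the SRC-family kinase YES1 from 8.87 to 17.1 FPKM and the RAS GTPase-activating protein RASA1 from 7.04 to 12.1 FPKM. Of 10 genes that attenuate the receptors, 6 rose and 2 fell (80.0% passed), with a median of 0.48. The ubiquitin ligase CBLB rose from 1.28 to 4.14 FPKM and the phosphatase PTPN12 from 25.7 to 40.1 FPKM. SOCS3, a suppressor of cytokine signalling, rose from 3.93 to 6.88 FPKM and STAT5A from 1.00 to 2.68 FPKM.

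Of 11 regulators of VEGFA and PDGF transcription, 4 rose and 4 fell, with a median of -0.13 that had the other sign in 3 of 14 alternatives. HIF1A and EPAS1, the oxygen-regulated alpha subunits of hypoxia-inducible factors, rose from 293 to 547 FPKM and from 9.01 to 19.3 FPKM. EGR1, a zinc-finger factor that acts on PDGF ligand promoters, fell from 23.5 ± 2.45 to 3.42 ± 0.348 FPKM (means ± SD over 3 libraries each). Of 15 hypoxia-responsive genes, 9 rose, 2 fell and 4 did not pass, with a median of 0.24 (0.32 without OE-NC 1). The shares that passed, 72.7% of the regulators and 73.3% of the hypoxia-responsive genes, were near the 69.1% over all genes. VEGFA, a gene of the same response, fell. NDRG1 rose from 6.74 to 20.03 FPKM, the histone demethylase KDM3A from 5.40 to 12.6 FPKM, the lysyl oxidase LOX from 32.2 to 114 FPKM and ANGPTL4 from 0.725 to 3.55 FPKM.

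Of 20 early response genes of growth-factor signalling, 8 rose and 10 fell, with a median of -0.21. Thus 90.0% passed, in both directions, against 69.1% over all genes. The median was -0.31 without OE-NC 1 (8 rose and 11 fell), -0.12 without OE-NC 2 and -0.13 without OE-NC 3. It was -0.07 after quantile normalization and -0.03 with no filter. The AP-1 subunit genes FOSL1 and JUN fell from 84.3 ± 13.0 to 9.58 ± 0.446 FPKM and from 78.0 ± 5.41 to 16.2 ± 0.956 FPKM (each ± SD, n = 3). The MAP kinase phosphatase gene DUSP4 rose from 0.655 to 2.46 FPKM.

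**Figure D5:**
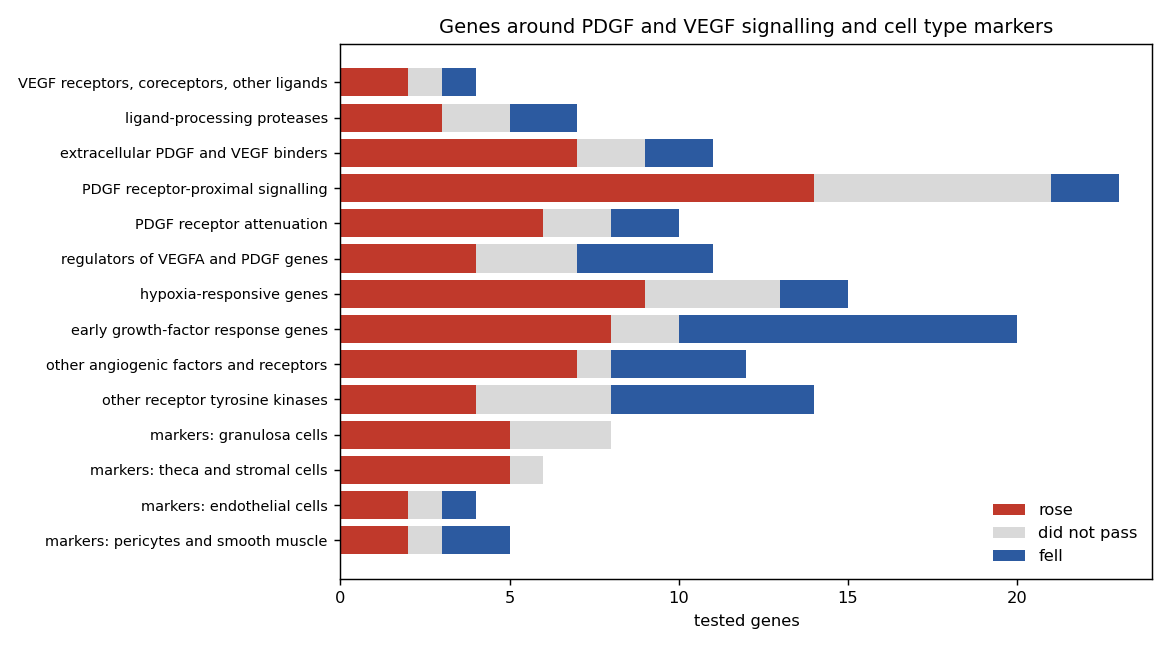
Number of tested genes in each list that rose (red), did not pass the test (grey) or fell (blue) in OE-SOX3. Signalling proteins close to the PDGF receptors rose in 14 of 23 cases and fell in 2. Early response genes rose in 8 of 20 cases and fell in 10. Over all genes, 32.9% were higher and 36.1% lower.

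Levels of cell type markers also differed between the groups. Of tested markers, 83.3% passed for theca and stromal cells, 62.5% for granulosa cells, 75.0% for endothelial cells and 80.0% for pericytes and smooth muscle. Over all genes tested 69.1% passed, 32.9% higher and 36.1% lower. The summed level of theca and stromal markers was 938 to 977 FPKM in OE-NC and 3537 to 3777 FPKM in OE-SOX3, and 5 of 6 tested rose, COL1A1 from 320 to 1835 FPKM and COL3A1 from 34.4 to 127 FPKM. Granulosa markers summed to 60.5 to 63.0 and 154 to 160 FPKM, and 5 of 8 rose with none falling, among them STAR, the carrier of cholesterol into mitochondria, from 33.6 to 118 FPKM. STAR made up most of the granulosa sum in both groups, and COL1A1 a large part of the theca and stromal sum, so these sums follow few genes. With no filter on low values, 7 of 13 granulosa markers rose and 1 fell. Endothelial markers summed to 10.1 to 10.6 FPKM in OE-NC and 13.8 to 14.6 FPKM in OE-SOX3. Of these, 4 were tested, of which 2 rose and 1 fell (EGFL7, PECAM1 and TEK passed the test). CDH5, TIE1 and EMCN were under 0.1 FPKM in all libraries. Of pericyte and smooth muscle markers 2 of 5 rose (NOTCH3 and ACTA2, the latter with 30.1% of its exon bases in other genes) and 2 fell (MCAM and RGS5), their sums lay at 227 to 282 and 255 to 263 FPKM, and MYH11, DES, CNN1 and KCNJ8 were under 0.1 FPKM throughout. No leukocyte or platelet marker passed the filter, and their sums lay between 0.566 and 2.33 FPKM. The part of the stromal genes in the rise of both receptors was not tested.

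The 6 libraries also gave the genes whose levels ran most like each member, as Pearson r of log2(FPKM + 1), a description since the libraries of each group share their condition. Likest PDGFRA were JAG1 (r = 0.9998), GLUL and IKZF2, though 791 genes had r over 0.99. Likest PDGFRB were ZNF507, EPHA4 and IRS1 (180 genes over 0.99), and likest PDGFB were AGPAT4, SNX18 and CPNE1 (475). Likest VEGFA were CDKL1, TRA2B and NCAPH2 (693), of which TRA2B stood at 40.6 FPKM in OE-NC and 14.8 FPKM in OE-SOX3. CPNE1 shares 25.8% of its exon bases with other genes, CDKL1 30.9%, and MTHFD2 and S100A13, named next, 33.2% and 33.5%. Their reads are uncertain to that extent. For the other tested genes 8 or fewer passed 0.99: likest were RAP1A, FXYD5 and ACTR6 for PDGFA, MTHFD2, SRRM3 and HDAC2 for PDGFC, ERGIC3, GTF2E2 and S100A13 for VEGFB, and CNIH1, FAM83G and MPV17L2 for VEGFC. Between members, r was 0.996 for PDGFRA and PDGFB, -0.994 for PDGFRA and VEGFA, and 0.815 for PDGFC and VEGFB, a pair in which OE-NC 1 was the highest library.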

How the data were processed

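RNA of 6 KGN libraries was sequenced, 3 per group. The table deposited by the authors holds 1 value per gene and library with no unit named in its header. The deposited values were taken to be FPKM, reads divided by transcript length and library total by the authors, because a gene's values are multiples of 1 step set by its length. HISAT2, HTSeq, RSEM and the build hg38 are named in the submitters' processing notes, with no versions or roles, and the strand setting is not given in the sources used here. Reads and lengths were recovered from the steps, taking the fewest reads that give whole numbers: all 16278 genes above 0 came out whole within 0.02 reads, and 348 genes were at 0 in every library. No column of per-sample values was left unused.

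Values were transformed as log2(FPKM + 1), and 11131 genes whose mean reached 1 FPKM in either group were tested with limma 3.58.1 in R 4.3.3 (empirical Bayes with a mean trend, no covariates, Benjamini-Hochberg adjustment, threshold 0.05). Read ratios carry exact 95% intervals for counting error. Single ratios were tested by exact permutation of the 6 libraries, two-sided. Alternatives were a pseudocount of 0.1, no filter, scaling every library to the same sum, quantile normalization, removal of the trend against length, a replicate block, voom on the recovered reads (7670 genes called) and leaving out each library.

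The labels number libraries 1 to 3 in both groups without saying what a number shares. Deviations from group means correlated at 0.486, 0.243 and 0.250 for same-numbered libraries. Correlations across the numbers 2 and 3 were as high (0.227 and 0.282). Those between a library numbered 1 and one numbered 2 or 3 were negative, from -0.462 to -0.266. The libraries numbered 1 thus deviated alike in both groups. Their difference from the rest of their group followed transcript length, at a Spearman correlation of -0.508 for OE-NC 1 and -0.215 for OE-SOX3 1. The values do not settle whether the numbers pair the libraries. The main fit took the libraries as unpaired, and the replicate block was an alternative.

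The genes and gene lists were chosen with earlier results of these data known. Named from each list were up to 4 called genes with the smallest adjusted p, every gene of the VEGF receptor list, and the 3 genes most like each member. The values of 1 gene that this rule names are not reported here. Positions come from GENCODE 29 and promoters from RefSeq on GRCh38.p14.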

Additional observations from a re-analysis of the deposited data

How the results depend on the processing

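PDGFRA, PDGFRB, PDGFB and VEGFA passed the test in their direction in all 14 alternatives. With a pseudocount of 0.1, with no filter and with voom, 2 members fell, as in the main fit. Only 1 fell when every library was scaled to the same sum, after quantile normalization and with the length trend removed. The same held with the replicate block, without or with length removed. When a library was left out, 1 to 2 fell. The replicate block ended 1 call, that of VEGFC (log2 fold change -0.16, limma adjusted p = 0.0669), changed no other call of a member (of the named genes of other lists, KDR alone passed newly), and called 8031 genes against 7686. The VEGFC log2 fold change was -0.0146 at the same sum, 0.0593 after quantile normalization, 0.0268 with the length trend removed and 0.0268 with the block as well, and -0.18 to -0.13 when a library was left out. That of VEGFB turned to 0.0948 at the same sum, 0.15 after quantile normalization, 0.17 with the length trend removed and 0.17 with the block as well, and ran from -0.13 to 0.12 when a library was left out. That of PDGFC was 0.068 after quantile normalization. That of PDGFA ran from 0.38 to 0.65 when a library was left out. The causes were not tested. PDGFB ranged from 1.58 to 2.94, the latter with voom on reads. With 3 libraries per group and no label of separate cultures, small differences such as that of VEGFC are at the limit of these data, and PDGFD rests on 1 and 46 reads.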

Other observations

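Other angiogenic factors and receptors were measured as well, by lists chosen with earlier results known. The test was run on 12 of these genes: 7 were higher and 4 were lower. Together these were 91.7%, against 69.1% over all genes tested. The median log2 fold change was 0.30, and it ranged from 0.09 with no filter to 0.47 at the same sum in every library. At the same sum 8 of 13 were higher and 2 lower, and without OE-NC 2 or without OE-NC 3 7 of 12 were higher and 2 lower. ANGPT1, a ligand of the receptor TEK, rose from 2.74 ± 0.168 to 6.48 ± 0.511 FPKM, and EFNA1, an ephrin ligand, from 0.0552 ± 0.0186 to 2.61 ± 0.153 FPKM (means ± SD over 3 libraries each). The growth factor gene FGF1 fell from 3.00 ± 0.151 to 0.351 ± 0.133 FPKM and the chemokine gene CXCL8 from 1702 ± 265 to 455 ± 29.9 FPKM. Of 14 other receptor tyrosine kinase genes, 4 rose and 6 fell (71.4% passed, near the share over all genes), with a median of -0.22. When every library was scaled to the same sum, and also after quantile normalization, 5 rose and 4 fell, and the median ranged from -0.38 with the length trend removed to -0.02 with no filter. CSF1R, which belongs to the same kinase family as the PDGF receptors, fell from 4.68 ± 0.883 to 1.42 ± 0.180 FPKM, and AXL fell from 99.98 ± 2.74 to 56.5 ± 0.503 FPKM. The insulin-like growth factor receptor gene IGF1R rose from 3.92 ± 0.407 to 9.55 ± 0.0771 FPKM, and the collagen receptor gene DDR1 from 13.3 ± 0.279 to 36.3 ± 0.802 FPKM.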
